A study of Gossypium hirsutum with 89 samples.

Results

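The 200 probe sets described here are those whose signal dropped most between early and late fibre development in all 5 cotton genotypes of the series. They were chosen from 24132 probe sets on the Affymetrix Cotton Genome array, of which 12514 were eligible because their mean in 1 or more of the 30 combinations of genotype and day was 8 or higher on the scale log2(signal + 4.4). For each genotype the mean of 6, 9 and 12 days post anthesis (dpa) was subtracted from the mean of 19 and 25 dpa, and the 200 probe sets with the lowest value in their least affected genotype were kept. A probe set is a group of short probes read out as 1 signal for 1 transcript or a few similar ones. Control probe sets and 2 further probe sets named in the rule were left out before the 200 were counted. The choice used these same arrays, so the late loss itself is given below as a description, with no test.

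The 89 arrays came from field-grown upland cotton, Gossypium hirsutum. JKC 725 and JKC 777 are the genotypes classed by the submitters as having superior fibre traits, and JKC 703, JKC 783 and JKC 737 those classed as inferior. For every genotype there were 3 biological replicates at 0, 6, 9, 12, 19 and 25 dpa, except that JKC 783 had 2 at 25 dpa. The 0 dpa samples were whole ovules and all later ones were fibre alone, so the step between them also changes the tissue.

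A cotton fibre is a single cell that grows out of the ovule epidermis around anthesis. It first elongates, with a thin primary wall that is loosened and extended while turgor drives growth, and with membrane and cuticle lipids supplied to the growing surface. It then passes into secondary wall synthesis, in which cellulose is deposited in thick layers, and transcripts used for elongation commonly give way to those for cellulose synthesis. In RNA from whole fibre samples, fewer cells that hold a transcript and less of it per cell cannot be told apart.

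The arrays were even in scale, with a trimmed mean signal of 500.091 to 500.188 and a median correlation with the other arrays of their group of 0.974, the lowest being 0.932. The summed signal of 6 fibre cell marker probe sets, for E6, H6L, LTP3, EXPA1 and FLA4, was 41246 to 118698 in fibre arrays, against 8518 to 12509 in ovule arrays. The summed signal of 4 marker probe sets of ovule, seed coat or embryo was 5212 to 23677 in fibre arrays, against 6754 to 13613 in ovule arrays. Of these 4, PG was below a signal of 40.42 on every fibre array except 1 of JKC 777 at 25 dpa, which had 129.6, while Lea5-D, Lea14-A and HIS2B were found in fibre too. The part of ovule RNA in the results was not tested.

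The late loss was deep. The late minus early difference had a median over the 200 members of -3.35 for JKC 725, -3.25 for JKC 777, -3.50 for JKC 703, -2.96 for JKC 783 and -3.39 for JKC 737, on the log2 scale. Over all eligible probe sets the median of the same difference, averaged over genotypes, was -0.15. The first-ranked member, Ghi.9734.1.S1_at, had -4.94 in its least affected genotype, and the second, Ghi.127.1.S1_x_at, had -4.81. The limit lay in a dense range. The last members inside were GhiAffx.62798.1.S1_at at -1.9202, Ghi.4824.1.A1_s_at at -1.9188 and Gra.1694.2.S1_s_at at -1.9179. The first probe sets outside were GhiAffx.48209.1.S1_at at -1.9098, Ghi.7353.1.S1_s_at at -1.9035 and Ghi.5744.2.S1_s_at at -1.8957.

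The loss was also seen in arrays that had not been used to choose the probe sets. When the rule was applied without replicate 1, 196 of the 200 probe sets it chose lost at least 1 on the log2 scale in all 5 genotypes in replicate 1 alone, and 4.65% of the eligible probe sets did so. Without replicate 2 the count in replicate 2 was 198, against 4.71% of the eligible. Without replicate 3 it was 177 in replicate 3, against 3.16% of the eligible, with the late value of JKC 783 resting on 19 dpa alone.

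Most members were not restricted to elongating fibre. Averaged over genotypes, 134 of the 200, or 67.0%, had their highest level in the ovule at 0 dpa, against 46.8% of the eligible probe sets. A further 56 were highest at 6 dpa and 10 at 9 dpa. The median level of the members over genotypes was 9.90 at 6 dpa and 9.94 at 0 dpa. The members fell into 3 kinds by the 6 dpa fibre level relative to the ovule, set after the values were seen. The fibre-raised kind, 43 members, was higher in 6 dpa fibre by at least 1 on the log2 scale. The shared kind, 77 members, was within 1 of the ovule level, and the ovule-high kind, 80 members, was lower in 6 dpa fibre by at least 1. Over the eligible probe sets these shares were 11.3% higher, 72.6% within 1 and 16.0% lower. The name of elongation probe sets thus rests on the loss in late fibre, and most of the 200 did not rise by that amount between ovule and 6 dpa fibre. The summed signal of 7 elongating fibre marker probe sets, for EXPA4, EXPA11A, Pel and myb109, was 7072 to 11814 at 6 dpa over all genotypes. At 19 dpa it was 145.2 to 338.0 in JKC 725 and 120.5 to 201.5 in JKC 703. It was still 7636 to 10906 in JKC 777, 7297 to 10643 in JKC 783 and 7324 to 10679 in JKC 737 on that day. The largest part came from 1 Pel probe set, with medians over all genotypes of 4879 at 6 dpa and 4840 at 19 dpa. These medians were 1886 and 1442 for EXPA11A, 1661 and 874 for the brightest EXPA4 probe set, and 690 and 238 for myb109. The other Pel probe set was below 40.42 on every array. The medians at 19 dpa include JKC 725 and JKC 703, so they do not show which markers stayed high in the other genotypes.

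**Figure D1:**
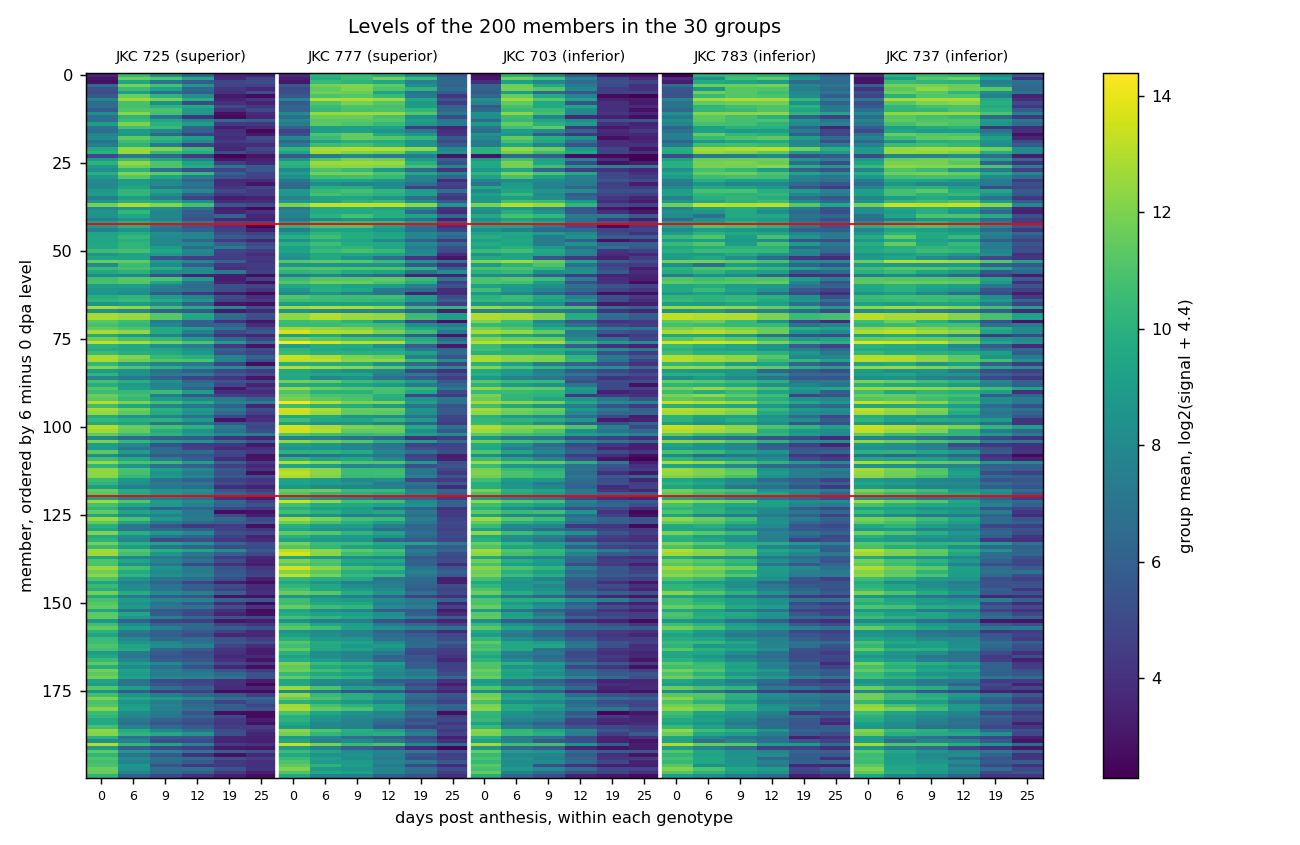
Group mean levels on the log2(signal + 4.4) scale, as colour, of the 200 members in rows and the 30 groups in columns, with days post anthesis running left to right within each genotype. Rows are ordered by the 6 dpa level minus the 0 dpa level, and the red lines separate the 43 fibre-raised, 77 shared and 80 ovule-high members. Levels darken earlier in JKC 725 and JKC 703 than in the other genotypes.

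Both ends of the ovule scale held strong fibre signals. Ghi.9693.1.A1_at, with the lowest mean ovule level of the members, had signals of 488 to 1730 with a median of 844 over the 15 arrays at 6 dpa, against 0.620 to 20.0 with a median of 4.83 over the 15 ovule arrays. This member was picked for its low ovule level, so the gap between these ranges is a description. GraAffx.28884.1.A1_s_at and Ghi.824.1.S1_at were next lowest in the ovule, with medians at 6 dpa of 859 and 1078, against ovule medians of 3.57 and 5.03. At the other end, Ghi.2087.1.S1_s_at had a median signal of 12328 at 6 dpa and of 13662 in the ovule, and its signal at 25 dpa had a median of 256 with a range of 14.9 to 2548. Ghi.158.1.S1_s_at and Ghi.8826.1.S1_s_at followed it, with ovule medians of 9811 and 9844.

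Few members carry a gene name. The annotation tables pair 14 of the 200 with exactly 1 gene, or 7.0%, against 4.18% of the eligible probe sets, and 3 of those genes have a readable name, namely cdn1, LTP3 and CNGC2. The other 11 have only a RefSeq locus symbol, and 186 probe sets are given by identifier alone. Of the 200, 98 have identifiers ending in s_at and 21 in x_at, which marks probes that can bind transcripts of several genes, including copies in the A and D subgenomes. These are 49.0% and 10.5% of the members, against 44.4% and 7.56% of the eligible probe sets. Only 8 members, or 4.0%, share a cluster number with another member. Within the eligible probe sets, a far larger set, 12.5% share one. Separate cluster numbers can stand for the same gene, so how many genes the members cover is not known.

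The gene lists for fibre elongation and the secondary wall cover only a small part of the tested probe sets. The lists cover expansins, xyloglucan endotransglucosylases, pectin modification, very long chain fatty acid enzymes, lipid transfer proteins, fasciclin-like arabinogalactan proteins, tubulins, actin cytoskeleton, MYB, HD-ZIP and bHLH factors, hormone genes, sesquiterpene synthesis, pumps and channels, and secondary wall genes. They hold 90 tested probe sets, and 2 of these are members, LTP3 and cdn1. That is 2.22% of the listed probe sets, against 1.07% of all tested probe sets. A probe set for the MYB factor GHMYB10, at -2.24 in its least affected genotype, lay inside the limit and is no member because the rule leaves it out by name. The XTH probe set Ghi.5744.2.S1_s_at, for a xyloglucan endotransglucosylase, was the third outside the limit. Of the 90, 27 had a late minus early difference of -1 or lower averaged over genotypes, and 12 had one in all 5 genotypes. The 7 expansin probe sets, for proteins that loosen the primary wall, had a median late minus early difference of -2.14, averaged over genotypes. None lost at least 1 in all 5 genotypes. EXPA1 was at -3.50 in JKC 725 and -3.88 in JKC 703, but at 0.47 to 0.62 in the other genotypes. The EXPA3D probe set Ghi.249.1.A1_at was at -5.02 and -4.73, against 1.30 to 2.36. The EXPA4 and EXPA11A probe sets had negative values in every genotype. The 7 secondary wall probe sets had a median of 3.95.

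The named members show different courses. The gene cdn1 encodes delta-cadinene synthase, which makes the precursor of gossypol-type sesquiterpenes in cotton, and it was of the fibre-raised kind. Its probe set, Ghi.102.1.S1_x_at, had signals between 3.56 and 127 on the 15 ovule arrays and between 131 and 4648 at 6 dpa, and the ranges do not overlap. In JKC 725 it was 70.4, 86.5 and 80.5 at 12 dpa, against 1732, 1347 and 1457 at 6 dpa, and in JKC 703 it was 226, 240 and 232 at 12 dpa, against 2917, 3721 and 4630 at 6 dpa. Every 12 dpa array of these genotypes was below every 6 dpa array. In JKC 737 it was 1440, 5497 and 5209 at 12 dpa, against 1434, 3531 and 3045 at 6 dpa, with overlapping replicates, and in JKC 783 it was 2378, 2537 and 1691 at 12 dpa, against 789, 686 and 131 at 6 dpa.

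The change of cdn1 between 6 and 12 dpa was thus opposite in direction among genotypes. It was tested with limma, a linear model fitted across 18660 probe sets with Benjamini-Hochberg adjustment, on the log2(signal + 4.4) scale. A probe set was called where the adjusted p was under 0.05 and the change 1 or more in size. The change from 6 to 12 dpa was -4.18 ± 0.62 (SE, n = 3 arrays per day) in JKC 725 with a limma adjusted p of 2.09e-07, and -3.96 ± 0.62 in JKC 703 with a limma adjusted p of 4.98e-07. It was 2.37 ± 0.62 for JKC 783 with a limma adjusted p of 0.00153, and -0.48 for JKC 777 and 0.47 for JKC 737 without being called. Between 19 and 25 dpa cdn1 fell by 5.0 in JKC 737 and by 3.52 in JKC 777, and was not called in the other genotypes.

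LTP3, a lipid transfer protein, binds and moves lipids outside the cell. Its member probe set, GhiAffx.15712.3.S1_x_at, was of the fibre-raised kind too. Its signals at 25 dpa were 70.4, 38.3 and 34.9 for JKC 725, 101, 205 and 480 for JKC 777, 169, 158 and 107 for JKC 703, 487 and 380 for JKC 783, and 148, 178 and 231 for JKC 737. At 6 dpa they were 2671 to 5530 over all genotypes. Both days entered the rule that chose the members, so this gap is a description. Between 19 and 25 dpa it was called lower in 4 genotypes, and for JKC 703 the change was -0.66 with a limma adjusted p of 0.139. A further probe set for LTP3, Ghi.4648.1.S1_x_at, is no member, and its signal at 25 dpa had a median of 15694, against 14639 at 6 dpa. The 2 probe sets thus disagree, and which transcripts each binds is not known from the files.

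CNGC2 is named for the cyclic nucleotide-gated channels, which pass cations across the membrane. Its probe set, Ghi.2470.1.S1_s_at, was of the ovule-high kind, with 1283 to 2087 on the ovule arrays, 210 to 1456 at 6 dpa and 24.4 to 143 at 25 dpa. It was called lower from 6 to 12 dpa in JKC 703 and JKC 783 and from 19 to 25 dpa in JKC 703 and JKC 737. No difference among genotypes was called in these changes, with a range over genotypes of 0.43 in the change from 6 to 12 dpa at a limma adjusted p of 0.983. Its mean fibre level did differ among genotypes, at 7.29 in JKC 725 and 7.99 to 8.29 in the other 4 (limma F test, adjusted p of 0.00173). Its mean change from 19 to 25 dpa had a limma adjusted p of 0.0012 and a size just short of that needed to be called.

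**Figure D2:**
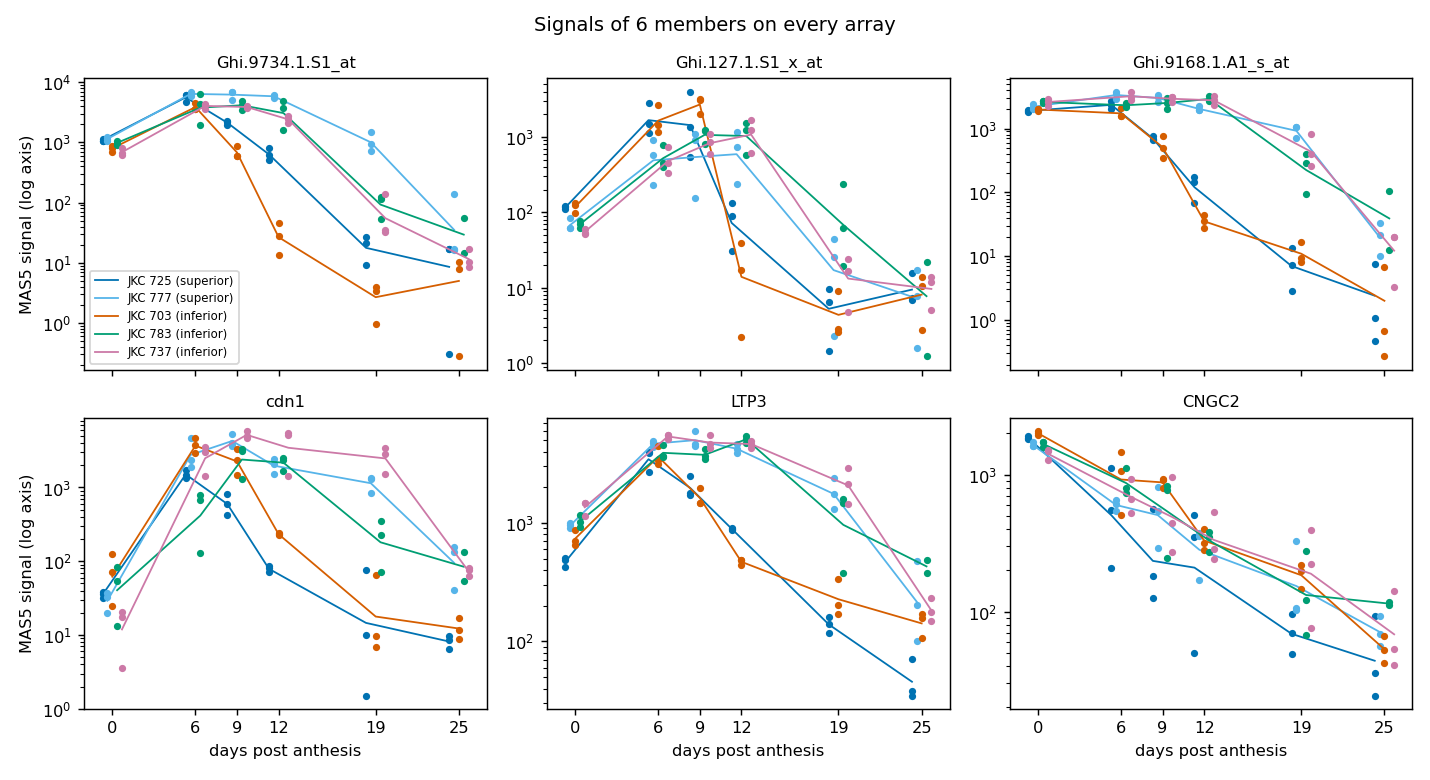
MAS5 signal on a log axis against days post anthesis for 6 members, each panel 1 probe set, with a point for each array and a line through the group means of log2(signal + 4.4), coloured by genotype. In cdn1 and LTP3 the lines of JKC 725 and JKC 703 turn down before 12 dpa and the other 3 fall mainly after it, whereas those of CNGC2 fall in all 5 genotypes from different levels.

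On the mean of the 5 genotypes, the members as a set fell before 12 dpa, but not in every kind and genotype. The 43 fibre-raised members had a median change from 6 to 12 dpa of -2.95 in JKC 725 and -3.31 in JKC 703. That median was -0.22 in JKC 777, 0.002 in JKC 783 and -0.01 in JKC 737. Averaged over genotypes, 54 members were called lower at 9 dpa than at 6 dpa, against 0.75% of all tested probe sets, and none was called higher by limma, against 1.38%, with 2 members higher at an unadjusted p under 0.05. From 9 to 12 dpa 99 members were called lower, against 1.19% of all tested probe sets, and none was called higher by limma, against 1.26%, with 2 members higher at an unadjusted p under 0.05. The median change of the members was -0.79 in the first step and -0.99 in the second, and that of all tested probe sets was near 0 in the first and -0.03 in the second. These steps lie within the early mean of the rule, so their error does not enter the choice of members, and the same holds for the step from 19 to 25 dpa except in JKC 783 with its missing array, but a course that runs down throughout would lower them as well as the late days. Leaving out JKC 725 lowered the first count to 23, and leaving out JKC 703 lowered the second to 64.

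The members with the largest early falls were GhiAffx.23718.1.S1_s_at from 6 to 9 dpa and Ghi.3125.1.S1_x_at from 9 to 12 dpa. GhiAffx.23718.1.S1_s_at had 34.3, 46.3 and 35.9 at 9 dpa, against 725, 672 and 505 at 6 dpa, in JKC 725. In JKC 777 it had 342, 358 and 348 at 9 dpa, against 769, 814 and 830 at 6 dpa. The replicates did not overlap in either genotype, and the mean change was -2.27 ± 0.16 (SE, limma adjusted p of 8.3e-19). GhiAffx.30723.1.A1_x_at and GhiAffx.18056.1.A1_s_at came next in this step, with -1.89 and -1.87. Ghi.3125.1.S1_x_at, of the ovule-high kind, changed by -2.21 ± 0.27 (SE, limma adjusted p of 1.24e-09) from 9 to 12 dpa. Ghi.127.1.S1_x_at and Ghi.6797.1.S1_at came next in the second step with -2.19 and -1.92, and neither was called without JKC 703, where they changed by -0.94 and -0.93.

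The genotypes differed in when the fall took place. Between 6 and 12 dpa, 191 members were called lower in JKC 725, against 5.98% of all tested probe sets, and 194 in JKC 703, against 7.49%. The counts were 91 for JKC 777, against 4.11%, 125 for JKC 783, against 9.06%, and 89 for JKC 737, against 6.31%. Members called higher by limma numbered 0 for JKC 725 and JKC 703, against 11.7% and 6.55% of all tested probe sets and with 0 at an unadjusted p under 0.05 in both, 2 for JKC 777, against 3.67%, 5 for JKC 783, against 7.73%, and 2 for JKC 737, against 5.76%. The median change of the members from 6 to 12 dpa was -2.43 for JKC 725, -1.11 for JKC 777, -2.77 for JKC 703, -1.57 for JKC 783 and -1.02 for JKC 737. In all 5 genotypes 68 members were called lower, and in exactly 2 genotypes 72 were. Calls shared by genotypes were not counted over all tested probe sets. Without replicate 2 the JKC 777 count was 40, and without replicate 1 the JKC 737 count was 43.

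Between 19 and 25 dpa JKC 777 and JKC 737 had the highest counts. In this step 150 members were called lower in JKC 777, against 5.81% of all tested probe sets, and 113 in JKC 737, against 12.9%. The counts were 49 for JKC 725, against 4.81%, 28 for JKC 703, against 4.63%, and 46 for JKC 783, against 2.41%. Members called higher numbered 5 for JKC 725, against 1.75%, 1 for JKC 777, against 5.77%, 2 for JKC 703, against 1.09%, and none for JKC 783, against 1.83%, or for JKC 737, against 5%. At an unadjusted p under 0.05, 0 members were higher in JKC 783 and 2 in JKC 737. The median change of the members was -0.73 for JKC 725, -1.76 for JKC 777, -0.59 for JKC 703, -0.76 for JKC 783 and -1.32 for JKC 737. Averaged over genotypes, 115 members were called lower by limma, against 3.23%, and none higher, against 1.63%, with 0 higher at an unadjusted p under 0.05. All 200 mean changes were below 0.

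The smaller late counts of JKC 725 and JKC 703 went with signals that were already low. At 19 dpa 136 members for JKC 725 and 135 for JKC 703 had a group mean below a signal of 40.42, the 40th percentile of the table, against 29 for JKC 777, 30 for JKC 783 and 45 for JKC 737. The late calls numbered 46 in JKC 783, which had 2 arrays at 25 dpa, and 150 in JKC 777, which had 3. At 25 dpa the members below 40.42 numbered 177 for JKC 725, 111 for JKC 777, 164 for JKC 703, 72 for JKC 783 and 103 for JKC 737. Of the eligible probe sets, 3.72% to 4.74% were below 40.42 at 19 dpa and 4.35% to 6.90% at 25 dpa, depending on genotype. With 32 added to the signal in place of 4.4, the counts called lower from 19 to 25 dpa were 13 in JKC 725 and 11 in JKC 703, and 53 averaged over genotypes. The part of low signals in the genotype difference was not tested. Without replicate 2, the count from 19 to 25 dpa was 23 for JKC 725, 12 for JKC 703 and 14 for JKC 783.

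**Figure D3:**
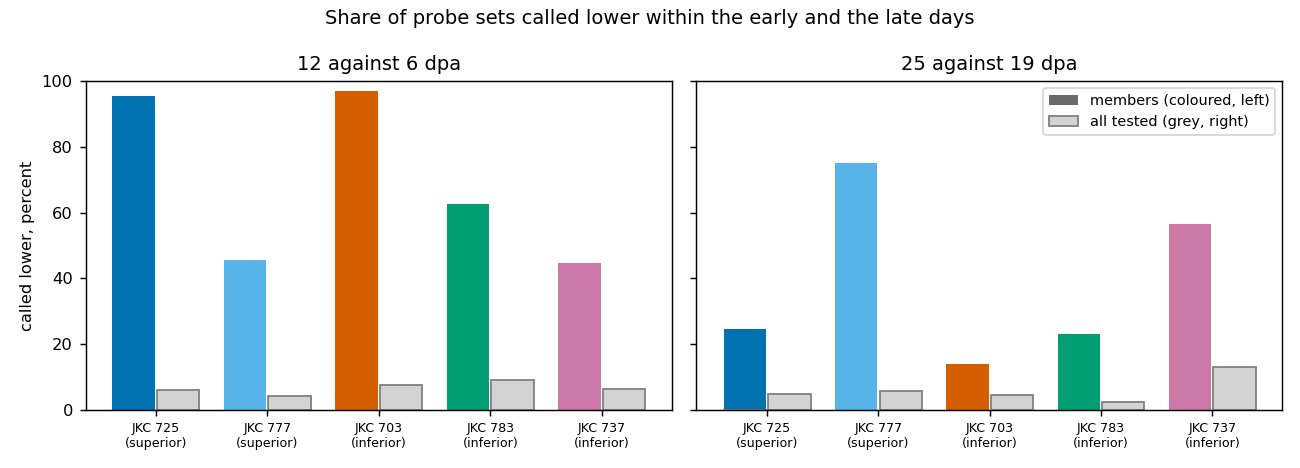
Percent of the 200 members (coloured bars, left) and of all 18660 tested probe sets (grey bars, right) called lower by limma in each genotype, at 12 dpa relative to 6 dpa in the left panel and at 25 dpa relative to 19 dpa in the right panel. JKC 725 and JKC 703 have the highest member bars in the left panel, and JKC 777 and JKC 737 in the right panel.

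The same shift in time is seen in the levels. The median level of the members at 0, 6, 9, 12, 19 and 25 dpa was 10.18, 9.45, 7.86, 6.72, 4.74 and 4.15 in JKC 725, and 10.29, 9.55, 8.63, 6.64, 4.82 and 4.15 in JKC 703. It was 9.94, 10.06, 9.76, 9.05, 7.03 and 5.04 for JKC 777, 10.12, 10.09, 9.64, 8.69, 6.73 and 5.93 for JKC 783, and 9.80, 10.01, 9.73, 8.94, 6.63 and 5.23 for JKC 737. At 12 dpa JKC 725 and JKC 703 were thus at medians of 6.72 and 6.64, close to the 6.63 to 7.03 of the other 3 at 19 dpa. Of the members, 151 for JKC 725 and 73 for JKC 703 lay at least 1 below their 6 dpa level from 9 dpa onward, against 34 for JKC 777, 56 for JKC 783 and 26 for JKC 737. These counts were not made over all tested probe sets, and the levels in them also entered the rule.

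**Figure D4:**
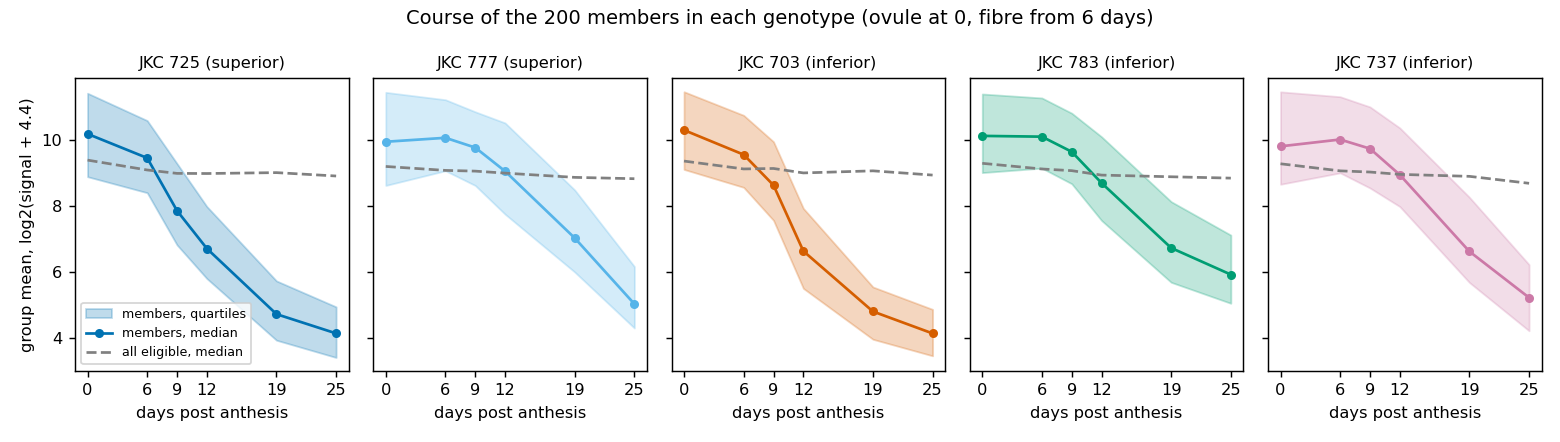
Median (points and line) and quartiles (shading) of the group mean levels of the 200 members on the log2(signal + 4.4) scale against days post anthesis, 1 panel per genotype, with the median of all 12514 eligible probe sets as a dashed line. The members cross below the dashed line between 6 and 9 dpa in JKC 725 and JKC 703, and between 9 and 19 dpa in the other genotypes.

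Secondary wall markers differed between the same genotypes. The summed signal of 6 probe sets for CTL1, nst3 and the cellulose synthase CelA1, which acts in secondary walls, at 19 dpa was 28294 to 31195 in JKC 725 and 27413 to 28472 in JKC 703. It was 7409 to 9101 for JKC 777, 8932 to 11119 for JKC 783 and 9935 to 10648 for JKC 737. None of the 6 was below 40.42 on every array of any genotype at 19 dpa. The CelA1 probe set Ghi.1151.1.A1_at was already at 2594, 532 and 2660 in JKC 725 and 7181, 6992 and 4109 in JKC 703 at 12 dpa, and between 27.7 and 97.5 in the other 3 genotypes. The other CelA1 probe set, Ghi.8461.1.A1_at, also rose earlier in JKC 725 and JKC 703, but ran the opposite way at 19 dpa. At 6 dpa it already had 2173 to 5176 in JKC 725 and 2604 to 4154 in JKC 703. On that day it had 6.65 to 39.99 in the other 3 genotypes, which had 2405 to 5738 at 12 dpa. At 19 dpa it had 854 to 1603 in JKC 725 and 221 to 1974 in JKC 703, against 5938 to 7707 in JKC 777, 7341 to 8530 in JKC 783 and 8812 to 9342 in JKC 737. Its late minus early difference was -2.24 in JKC 725 and -2.94 in JKC 703, and 4.87, 4.37 and 5.28 in JKC 777, JKC 783 and JKC 737. The part of fibre stage in the genotype difference was not tested.

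The difference among genotypes was tested directly with limma's F test on the 5 genotype changes, called where the adjusted p was under 0.05 and the range 1 or more. For the change from 19 to 25 dpa 93 members, or 46.5%, were called, against 27.7% of all tested probe sets. For the change from 6 to 12 dpa, a test added after the data had been seen, 99 members, or 49.5%, were called, against 24.1%. These changes share no arrays.

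The widest ranges belonged to fibre-raised members. Ghi.7741.1.S1_at had 28.2, 33.8 and 24.5 at 25 dpa, against 21.4, 2.12 and 14.0 at 19 dpa, in JKC 725. In JKC 737 it had 21.7, 2.52 and 4.61 at 25 dpa, against 366, 1116 and 451 at 19 dpa. The JKC 737 replicates are separated, whereas both days of JKC 725 are close to the bottom of the scale. Its range of the change from 19 to 25 dpa over genotypes was 6.79 (limma adjusted p of 6.02e-14). Ghi.5081.1.S1_s_at followed with 6.49, and GraAffx.28884.1.A1_s_at with 6.42.

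GraAffx.28884.1.A1_s_at also moved in opposite directions before 12 dpa. In JKC 703 it had 205, 177 and 259 at 12 dpa, against 3314, 2791 and 4045 at 6 dpa. In JKC 783 it had 2624, 3036 and 2754 at 12 dpa, against 311, 277 and 333 at 6 dpa. Neither genotype's days overlap, and the probe set was called lower in JKC 725 and JKC 703 and higher in JKC 777, JKC 783 and JKC 737. The range of its change from 6 to 12 dpa was 7.13 (limma adjusted p of 3.2e-13). Ghi.127.1.S1_x_at had a range of 7.65 and GhiAffx.29745.1.S1_s_at one of 7.10 in the same change.

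The largest mean falls from 19 to 25 dpa were those of Ghi.9168.1.A1_s_at at -2.88 ± 0.19, GhiAffx.50889.1.S1_x_at at -2.64 ± 0.18 and GhiAffx.29745.1.S1_s_at at -2.62 ± 0.21 (SE). Because signals at 25 dpa are near the bottom of the scale, the size of these falls depends on the offset: with 1 or 32 added in place of 4.4, that of Ghi.9168.1.A1_s_at was -3.36 or -1.96, and it was called lower with both. Ghi.9168.1.A1_s_at, a shared member, had 10.2, 21.5 and 33.4 at 25 dpa, against 717, 1044 and 1044 at 19 dpa, in JKC 777. In JKC 737 it had 20.0, 3.34 and 19.7 at 25 dpa, against 395, 818 and 254 at 19 dpa. The arrays of both days are apart in both genotypes. In JKC 725 it had 1.08, 7.40 and 0.459 at 25 dpa, against 7.30, 13.2 and 2.79 at 19 dpa, which overlap. The limma adjusted p of its mean change was 2.99e-20.

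The first-ranked member, Ghi.9734.1.S1_at, was called lower from 6 to 12 dpa in JKC 725 and JKC 703 alone among the 5 genotypes. In JKC 703 it had 13.6, 28.3 and 46.2 at 12 dpa, against 3585, 3539 and 4532 at 6 dpa. In JKC 777 it had 5552, 6050 and 5916 at 12 dpa, against 6842, 5810 and 6582 at 6 dpa, and these overlap. Between 19 and 25 dpa it had 16.4, 17.0 and 137 at 25 dpa in JKC 777, against 953, 1465 and 721 at 19 dpa, with no overlap. The change from 6 to 12 dpa was -6.96 ± 0.48 in JKC 703 and -0.13 ± 0.48 in JKC 777 (SE), with limma adjusted p of 2.01e-19 and 0.883. The change from 19 to 25 dpa was called lower in JKC 777 at -4.66 and in JKC 737 at -1.89.

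GhiAffx.62108.1.S1_at, the third in rank, was of the fibre-raised kind. In JKC 725 it had 418, 249 and 493 at 12 dpa, against 3188, 4364 and 4395 at 6 dpa. In JKC 737 it had 2974, 3187 and 3840 at 12 dpa, against 3732, 3958 and 3440 at 6 dpa. The JKC 725 arrays are apart by day and those of JKC 737 overlap. The changes from 6 to 12 dpa were -3.39 ± 0.31 and -0.16 ± 0.31 (SE), with limma adjusted p of 5.29e-14 and 0.735.

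The counts called in each step differed with the kind of member in some genotypes. Among the 43 fibre-raised members, 41 for JKC 777 and 40 for JKC 737 were called lower from 19 to 25 dpa, but 4 for JKC 725 and 4 for JKC 703. Their median change in this step was -3.08 for JKC 777, -2.93 for JKC 737, -1.16 for JKC 783, -0.44 for JKC 703 and -0.07 for JKC 725. Among the 80 ovule-high members, 49 were called lower for JKC 777 and 30 for JKC 737, with 14 for JKC 725, 9 for JKC 703 and 9 for JKC 783. The F test of the change from 19 to 25 dpa called 36 of the 43 fibre-raised, 40 of the 77 shared and 17 of the 80 ovule-high members. From 6 to 12 dpa 75 of the 80 ovule-high members were called lower in JKC 783 and 58 in JKC 777, against 5 and 4 of the 43 fibre-raised members. In JKC 737 the counts were 54 of the 80 and 2 of the 43. No such split was seen in JKC 725, with 74 of the 80 ovule-high and 43 of the 43 fibre-raised members called lower, or in JKC 703, with 79 and 42. The kinds were set on the 6 dpa arrays, which the change from 6 to 12 dpa also uses, so these counts are a description and the difference between kinds was not tested.

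**Figure D5:**
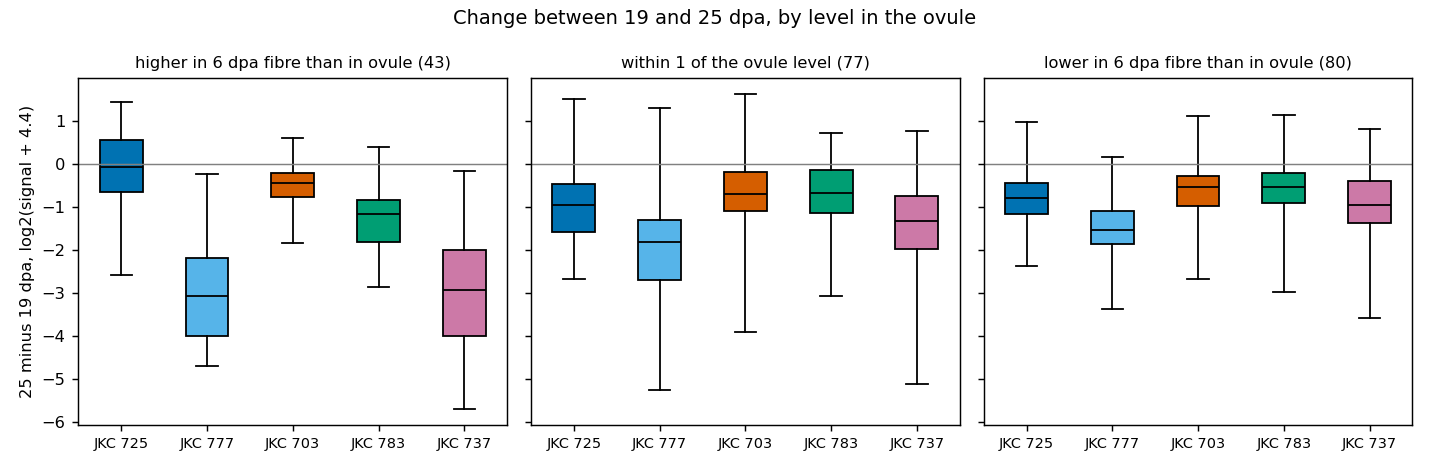
Change from 19 to 25 dpa on the log2(signal + 4.4) scale, 25 minus 19 dpa, for the fibre-raised (left), shared (middle) and ovule-high members (right) in each genotype. Boxes show the quartiles and median and whiskers the full range over members, and the fibre-raised members lie lowest in JKC 777 and JKC 737.

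Over the whole fibre course the members were called different among genotypes more often than probe sets in general. The F test of the mean level over the 5 fibre days called 186 members, or 93.0%, against 22.9% of all tested probe sets. It used the same fibre arrays as the rule. Its error has no share in the late minus early difference, except in JKC 783 with its missing array. The members were chosen for a fall, and a genotype that falls earlier also has a lower mean. The test therefore cannot tell a difference in level from one in timing. The median of this mean level was 6.61 for JKC 725, 8.25 for JKC 777, 6.83 for JKC 703, 8.24 for JKC 783 and 8.20 for JKC 737. JKC 725 and JKC 703 were the 2 lowest genotypes for 193 members. This order was not counted over all tested probe sets. The widest range was that of GraAffx.32888.2.S1_s_at, 5.26, with mean levels of 6.10 in JKC 725 and 11.37 in JKC 737. Ghi.459.1.S1_at and Ghi.9734.1.S1_at followed with 4.14 each.

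Fewer members were called in the ovule. The F test at 0 dpa called 38 members, or 19.0%, against 28.6% of all tested probe sets. The count fell to 23, 24 and 22 when replicate 1, 2 or 3 was left out. JKC 725 and JKC 703 were the 2 lowest at 0 dpa for 39 members, an order also not counted over all tested probe sets. GhiAffx.18103.1.S1_at had the widest range there, 3.24 (limma adjusted p of 2.76e-05), with ovule signals of 14.5, 26.4 and 89.4 in JKC 777 and 470, 278 and 341 in JKC 703. The arrays of these genotypes do not overlap. GhiAffx.17946.1.A1_at and GarAffx.37202.1.S1_x_at followed with 3.21 and 2.75. Of the 38 members called, 20 were fibre-raised, 13 shared and 5 ovule-high.

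No member was called between the labelled fibre classes. With the 5 genotypes as replicates, 2 superior against 3 inferior, limma called 0 of the 200 members in the mean fibre level, against 0 of 18660 probe sets, 0%, in either direction. At an unadjusted p under 0.05 it was 0 members lower and 0 higher in superior genotypes, out of 80 and 53 probe sets. At 0 dpa limma called 0 members, against 0.00536% of all tested probe sets lower and 0% higher. With no adjustment, 3 members were lower and 2 higher at a limma p under 0.05, out of 450 and 230 probe sets. For the change from 19 to 25 dpa limma called 0 members, against 0% in either direction. In that change 14 members were lower and 0 higher at an unadjusted limma p under 0.05, out of 115 and 454 probe sets. Superior and inferior genotypes each include early and late courses, JKC 725 and JKC 777 among the superior, and JKC 703 and JKC 737 among the inferior.

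Of the 14 members paired with 1 gene, 12 were called lower from 6 to 12 dpa for JKC 725 and 12 for JKC 703, with 5 for JKC 777, 9 for JKC 783 and 5 for JKC 737, and 1, cdn1, was called higher for JKC 783. From 19 to 25 dpa 8 were called lower for JKC 777 and 8 for JKC 737, with 5 for JKC 725, 4 for JKC 703 and 3 for JKC 783. All 14 were called in the F test of the mean fibre level. The 11 without a readable name are the probe sets Ghi.6893.1.S1_s_at, Ghi.459.1.S1_at, Ghi.690.1.A1_s_at, Ghi.1965.1.S1_at, Ghi.8154.1.S1_at, Ghi.4351.1.S1_s_at, GhiAffx.62441.1.S1_at, Ghi.3041.1.S1_s_at, Ghi.10557.1.S1_s_at, Ghi.4648.2.A1_s_at and Ghi.10360.1.S1_a_at. Their late minus early differences, averaged over genotypes, ran from -4.03 for the first to -2.56 for GhiAffx.62441.1.S1_at. No gene is paired with more than 1 member.

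Among the gene lists, the mean change from 19 to 25 dpa called 6 of 7 expansins lower, against 3.23% of all tested probe sets, 2 of 7 very long chain fatty acid enzymes, 2 of 11 hormone genes, 1 of 2 lipid transfer proteins, which was the member LTP3, and the single sesquiterpene probe set, which was the member cdn1. It called 1 of 17 fasciclin-like arabinogalactan proteins lower and 4 higher, 1 of 9 MYB factors lower, and 2 of 7 secondary wall genes higher, against 1.63% of all tested probe sets. The lists hold too few probe sets for a count of 1 or 2 to be read against these shares. It called 1 of 5 xyloglucan endotransglucosylases and 1 of 2 pectin modification genes lower. None of 8 tubulins, 4 actin cytoskeleton genes, 7 pumps and carriers, 2 HD-ZIP factors or 1 bHLH factor was called in either direction by limma. The lists were chosen with earlier results of these data known.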

How the data were processed

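RNA from 0 dpa ovules and from 6 to 25 dpa fibre of 5 genotypes was measured on 89 arrays. The authors deposited 1 MAS5 intensity per probe set and array, on a linear scale, per the submitters' processing notes; the scaling to a common 2% trimmed mean was read from the values. Further settings of MAS5 are not given in the sources used here. All values were taken as log2(signal + 4.4). After 103 AFFX probe sets were left out, probe sets with a group mean of at least the signal 40.42 on that scale were tested, 18660 in all, 200 of them members; 5369 were not tested. limma 3.58.1 in R 4.3.3 fitted 30 group means with an intensity trend, and called changes at an adjusted p under 0.05 (Benjamini-Hochberg) and a size of at least 1; the fit was tested on simulated data. Genes were named from GEO's probe table and RefSeq assembly Gossypium_hirsutum_v2.1 synonyms, which name 743 probe sets, 697 with 1 gene. No coordinates or sequences are given. Named members are those with 1 gene, the first 5 and last 3 in rank with 3 outside it, up to 3 with the largest change or range per test, and the 3 highest and lowest in the ovule. Members and lists were chosen with earlier results of these data known. Replicates are labelled biological, and p-values measure the spread between them. The number of arrays limits the precision. Alternatives were other offsets (1 and 32), quantile and median scaling, no filter, a replicate block, and leaving out replicates, genotypes or 1 array.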

Additional observations from a re-analysis of the deposited data

Results flagged for a closer look

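Differences among the 5 genotypes in the same change were called by limma's F test for 93 members, or 46.5%, in the change from 19 to 25 dpa, against 27.7% of all tested probe sets, and for 99 members, or 49.5%, in the change from 6 to 12 dpa, against 24.1%. In the change from 19 to 25 dpa the ranges over genotypes were 6.79 for Ghi.7741.1.S1_at, 6.49 for Ghi.5081.1.S1_s_at and 6.42 for GraAffx.28884.1.A1_s_at, on the log2 scale. In the change from 6 to 12 dpa the ranges were 7.65 for Ghi.127.1.S1_x_at, 7.13 for GraAffx.28884.1.A1_s_at and 7.10 for GhiAffx.29745.1.S1_s_at. No single array was tested as an outlier, since groups hold 3 arrays or fewer.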

How the results depend on the processing

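Of 623 recomputed counts and values, 580 were kept, meaning a count within 1.5 times of the first or a named value still called. Direction was checked for the 255 named values only. None of these reversed and 252 were still called, but a range over genotypes cannot change sign. Counts of members called lower that moved by over 1.5 times were these. With an offset of 32 the change from 19 to 25 dpa gave 53 averaged over genotypes, 13 in JKC 725 and 11 in JKC 703. Without JKC 725 the change from 6 to 9 dpa gave 23, and without JKC 703 the change from 9 to 12 dpa gave 64. Leaving out 1 replicate number at a time, or only replicate 2 of JKC 725 at 12 dpa, gave 24 to 72 from 6 to 9 dpa, 73 to 133 from 19 to 25 dpa, 23 to 52 in JKC 725, 12 to 45 in JKC 703 and 14 to 48 in JKC 783, 40 to 92 from 6 to 12 dpa in JKC 777 and 43 to 90 in JKC 737, and 22 to 39 in the F test at 0 dpa. Without JKC 703, Ghi.127.1.S1_x_at and Ghi.6797.1.S1_at changed by -0.94 and -0.93 from 9 to 12 dpa, short of the size needed. At 2.18, the range of GarAffx.37202.1.S1_x_at at 0 dpa was no longer called without replicate 2 (limma adjusted p of 0.219). Without replicate 2 of JKC 725 at 12 dpa, an array chosen after the data were seen, 164 members were called lower from 6 to 12 dpa in JKC 725. Replicate numbers did not pair the arrays, since deviations from the group means correlated with a median of -0.001 within a number and 0.0003 between numbers; with the replicate block 116 members were called lower from 19 to 25 dpa, and no count moved by over 1.5 times. The rule kept 163 to 188 of the 200 members under other offsets, scalings or without a replicate. Centring arrays on the median turned the median change of all probe sets from 19 to 25 dpa in JKC 737 to 0.16, against -0.20 as scaled by the authors, with 89 members called lower there; the same centring gave 0.16 in JKC 703, against -0.13, and -0.16 from 6 to 12 dpa in JKC 725, against 0.07. The cause of these moves was not tested.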
